A study of Mus musculus with 12 samples.

Results

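Late biopsies of 3 colon tumors that ended as adenomas were compared with early biopsies of 3 other tumors that ended as intramucosal carcinoma. The arrays were chosen by time point and final pathology alone, 6 of the 12 in the series, and each came from a different mouse, so that nothing pairs them. The comparison asks which features of a tumor on its way to carcinoma a long-standing adenoma has also acquired, and which it has not. All animals were SWR x C57BL/6 F1 hybrids that carried Apc Min/+, an inherited truncating mutation in 1 copy of Apc that predisposes to intestinal tumors. All had also drunk 4% dextran sodium sulfate, which injures the colon and causes colitis, in 2 courses of 4 days with 17 days of plain water between them.

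The late adenomas came from mice 1755 (female, 234 days old), 1803 (male, 369 days) and 1805 (male, 395 days). The early carcinoma-fated tumors came from mice 2201 (male, 95 days), 3407 (female, 87 days) and 3413 (male, 117 days). The submitters gave no pathology for early biopsies, so each was given the fate its own tumor showed at the last biopsy. Early biopsies of the 3 adenoma mice (86 to 94 days), called early adenoma-fated here, serve as the starting point of the adenomas, and the late carcinoma arrays (200 to 267 days) entered the estimate of spread and are given for a few genes. Values are log2 intensities as deposited, 1 array per biopsy, and the 3 arrays of a group are different animals. The groups differ in age as well as in fate, and neither normal colon nor adenomas and carcinomas of equal age were analysed here, so age and fate cannot be told apart.

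Array medians lay between 7.62 and 7.80. The late adenoma of mouse 1805 stood apart, with a median correlation of 0.964 with the other arrays against at least 0.975 for each of those. The early array of mouse 2201 and the 3 early adenoma-fated arrays carry submitter sample numbers from 155 to 255, and the other 8 arrays carry numbers from 319 to 379. Averaged over the 50 probe sets with the lowest identifiers, the later-numbered arrays lay between 6.80 and 6.94 and the earlier-numbered ones between 7.08 and 7.19. How these array groups were handled is not stated, and several list medians and gene differences that move without the array of mouse 1805 or 2201 are given without it too. Of 110 genes followed singly, 29 had a difference that moved by over 1.5 times without the late adenoma of mouse 1805. That count was 8 without the early array of mouse 2201 and 11 without that of mouse 3413. The 13 colon epithelium markers, among them Lgals4 and Krt19, averaged 11.92 to 12.68 in late adenomas and 11.69 to 12.18 in early carcinoma-fated tumors, and the sex recorded for each mouse matched Xist on 12 of 12 arrays.

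Apc belongs to the complex that marks beta-catenin for destruction. When Apc is lost, beta-catenin accumulates, acts with TCF/LEF factors and holds epithelial cells in a dividing, crypt-like state in which Wnt target genes stay on. In healthy colon the cells that leave the crypt base stop dividing and mature into mucus-secreting goblet cells, absorptive surface colonocytes and hormone-secreting enteroendocrine cells. A tumor biopsy also holds fibroblasts, vessels, neutrophils, mast cells and other immune cells, and in such bulk RNA fewer cells of a type and less RNA per cell cannot be told apart.

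The late adenomas had higher levels of goblet, surface colonocyte and enteroendocrine genes than the early carcinoma-fated tumors. They had lower levels of division and DNA replication genes, of the Wnt receptor gene Fzd10 and of the Wnt ligand gene Wnt6. The mast cell protease genes Mcpt1 and Mcpt2 were lower too. Haptoglobin and Septin11, in contrast, stood above the early adenoma-fated level and near that of the carcinoma-fated tumors. Both were named by the difference between the early groups, which uses the same early adenoma-fated arrays. Several vessel and matrix genes stood near the level of 2 of the 3 carcinoma-fated tumors and above that of mouse 2201. These are descriptions of 3 arrays against 3: 0 of 19938 genes (0%) passed an adjusted p under 0.05 (limma with mouse as a random block, Benjamini-Hochberg; smallest adjusted p = 0.304). Without adjustment, 2724 genes (13.7%) had a p under 0.05, 868 of them higher in late adenomas (4.35%) and 1856 lower (9.31%). After median centring these shares were 5.42% higher and 5.77% lower, and after quantile normalisation 5.39% and 7.69%. The excess of lower genes thus depended on the normalisation. Shares of genes whose groups do not overlap were taken from the deposited values only. With limma's array weights, which gave the early array of mouse 3407 a weight of 4.93 and the late adenoma of mouse 1805 a weight of 0.323, 805 genes passed as higher and 1059 as lower.

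The values of the 2 groups did not overlap for 876 genes higher in late adenomas (4.39%) and 2206 genes lower (11.1%), and counts over gene lists below are read against these shares, the word apart meaning that all 3 arrays of a group lay beyond all 3 of the other. Over all genes the median difference, late adenoma minus early carcinoma-fated, was -0.05. Set against their own early biopsies, the late adenomas had 304 genes past the threshold (1.52%), 152 higher (0.762%) and 152 lower (0.762%). That count depends on the fit. It was 0 with array group as a term, 2 without the block, 25 with mouse as a fixed block, which pairs the biopsies by animal, and 3 without the late adenoma of mouse 1805. Of 27 genes that passed among those followed singly, all had the same direction in these 4 fits, and 0, 2, 7 and 2 of them passed in that order. Those past the threshold with the fixed block were Fzd10, Wnt6, Wnt10a, Lypd6, Egfl7, Hp and Zfp758, and those without mouse 1805 were Fzd10 and Zfp758. The words rose and fell below, for late against early adenomas, refer to the fit with 304 genes. Early carcinoma-fated against early adenoma-fated tumors gave 0 of 19938 genes (0%) by the same test, and 2384 (12%) at an unadjusted p under 0.05. These 3 comparisons share arrays, so the values of each are given side by side and no overlap between them is counted.

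**Figure D1:**
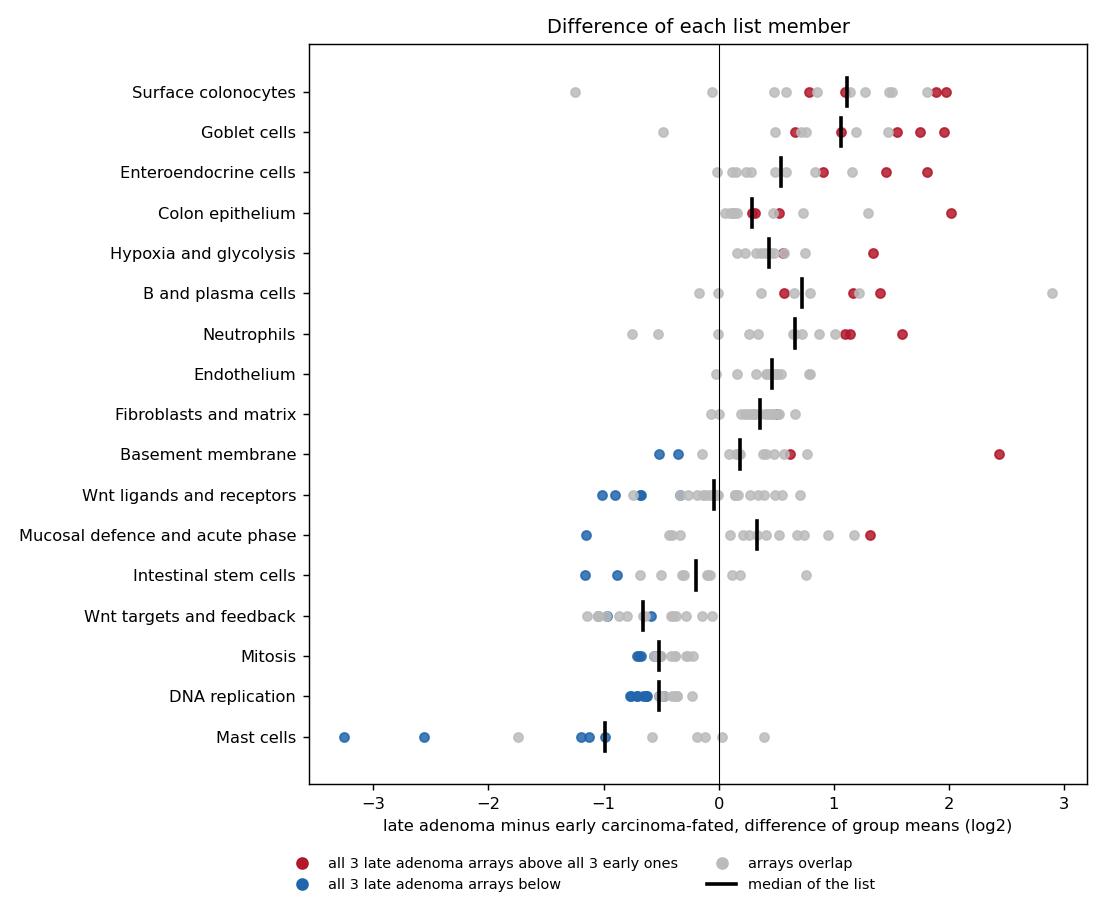
Difference of each measured member of 17 gene lists, late adenoma minus early carcinoma-fated (log2, x axis), 1 row per list with its median as a black bar. Red points are genes whose late adenoma arrays all lie above the early carcinoma-fated ones, blue points lie below and grey points overlap. All 16 mitosis and all 17 DNA replication genes lie left of 0, and 10 of 11 goblet cell genes lie right of it.

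Goblet cell genes were higher in every late adenoma when averaged over the list. Of 11 measured, 10 were higher in late adenomas and 5 were apart (45.5%, against 4.39% of all genes), with a median difference of 1.06. The mean over the list was 11.58, 10.33 and 11.25 in late adenomas, against 9.94, 10.08 and 10.10 in early carcinoma-fated tumors, and 11.78, 10.93 and 12.20 in early adenoma-fated tumors. Every late adenoma array therefore lay above every early carcinoma-fated array, and the adenomas of mice 1755 and 1805 lay in the early adenoma-fated range while that of mouse 1803 lay below it.

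Tff3, the trefoil peptide that goblet cells secrete with mucus to protect and repair the surface, had values of 12.83, 12.26 and 12.90 in late adenomas, against 10.46, 10.92 and 10.72 in early carcinoma-fated tumors. Its difference was 1.96 (95% interval 1.14 to 2.79, adjusted p = 0.304). With early adenoma-fated values of 12.75, 12.13 and 13.49, the late adenomas lay in the range from which they started. Atoh1, the transcription factor that commits cells to the secretory lineage, had values of 10.85, 9.80 and 9.69 in late adenomas, against 8.77, 7.93 and 8.38 in early carcinoma-fated tumors, a difference of 1.75 (95% interval 0.37 to 3.14). Muc2, the main gel-forming mucin of the colon, differed by 1.06 (95% interval 0.36 to 1.76), and Spink4, a goblet cell product, by 1.55 (95% interval 0.36 to 2.74). Clca1, another secreted goblet cell protein, was the 1 member that went the other way, at -0.48, and is named here after its value was seen.

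Surface colonocyte genes leaned the same way. Of 14 measured, 12 were higher in late adenomas, 4 were apart (28.6%, against 4.39% of all genes), and the median difference was 1.12. Without the adenoma of mouse 1803 the median was 1.79, with 11 of 14 higher at an unadjusted p under 0.05, against 4 of 14 with all arrays. Over all genes the share higher at that p was 7.66% without this array and 4.35% with all arrays. Slc9a3, a sodium/hydrogen exchanger of the colonocyte surface, went the other way at -1.24 (unadjusted p = 0.0469) and is named here after its value was seen. The list mean was 10.02, 8.75 and 10.30 in late adenomas, against 8.55, 8.71 and 8.90 in early carcinoma-fated tumors. On average the adenoma of mouse 1803 lay inside the carcinoma-fated range and those of mice 1755 and 1805 lay more than 1 unit above it. The early adenoma-fated tumors of mice 1755, 1803 and 1805 had 10.18, 9.89 and 11.11. For late minus early adenomas the list median was -0.47, with 4 of 14 higher and 0 past the adjusted threshold. Hsd11b2, which inactivates glucocorticoids in aldosterone-responsive epithelium, had values of 12.06, 10.17 and 11.96 in late adenomas, against 9.24, 9.01 and 9.9998 in early carcinoma-fated tumors. Scnn1a, a subunit of the epithelial sodium channel, differed by 1.09 (95% interval 0.25 to 1.94), and by 0.64 without mouse 1805. Guca2b, which encodes uroguanylin, a peptide that regulates salt and water secretion through guanylate cyclase C, differed by 0.79 (95% interval 0.42 to 1.15) and had the tightest arrays of the 4, at 11.39, 11.39 and 11.09 in late adenomas, against 10.69, 10.36 and 10.45 in early carcinoma-fated tumors.

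Guca2a encodes guanylin, another peptide ligand of guanylate cyclase C and a marker of mature colonocytes that is commonly lost in colon tumors. It had values of 11.04, 10.23 and 11.02 in late adenomas, against 9.21, 8.67 and 8.73 in early carcinoma-fated tumors, a difference of 1.89 (95% interval 0.88 to 2.91, adjusted p = 0.304). The early adenoma-fated values were 11.46, 9.79 and 11.69, and again held all 3 late adenoma values in their range. The promoter windows of 4 genes that the results turn on, Guca2a here and Fzd10, Wnt6 and Mcpt1 where they are described, were taken from RefSeq (build GRCm38.p6, plus strand, 250 bases before to 50 after the start). Capitals mark matches on either strand to GATAAG, the core of GATA factor sites (7.44% of 32841 mouse promoter windows of this length hold it), CTTTGA, the core of TCF/LEF sites (16.0%), or TATAAA, the TATA box (13.6%); no 2 matches overlap. The window of Guca2a, chr4:119637482-119637781, holds 2 GATA matches, both read on the minus strand, and no match to the other motifs:
Guca2a: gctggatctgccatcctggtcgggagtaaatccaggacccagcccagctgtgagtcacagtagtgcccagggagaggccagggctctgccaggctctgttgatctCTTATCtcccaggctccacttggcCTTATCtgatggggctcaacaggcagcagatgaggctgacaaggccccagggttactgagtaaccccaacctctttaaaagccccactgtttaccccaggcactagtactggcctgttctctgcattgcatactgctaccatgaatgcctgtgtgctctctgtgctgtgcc
A match is a description of the letters and was not tested as a binding site.

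Enteroendocrine genes were higher in 11 of 12 members, with 3 apart (25%, against 4.39% of all genes) and a median difference of 0.54. Chgb, a granin stored in hormone granules, had values of 9.54, 7.90 and 9.88 in late adenomas, against 7.35, 7.09 and 7.44 in early carcinoma-fated tumors, and the related Chga had 10.34, 8.94 and 10.15 in late adenomas, against 8.63, 8.04 and 8.39 in early carcinoma-fated tumors. Neurod1, a transcription factor of enteroendocrine differentiation, had 6.92, 5.69 and 6.60 in late adenomas, against 5.49, 5.36 and 5.63 in early carcinoma-fated tumors. In each of these genes the adenomas of mice 1755 and 1805 were well above the carcinoma-fated tumors and that of mouse 1803 was nearer to them. General colon epithelium markers were higher too, 13 of 13, with 4 apart (30.8%, against 4.39%) and a smaller median of 0.29. Lgals4, a galectin of the intestinal surface, differed by 0.52 (95% interval 0.26 to 0.78), Krt19 by 0.29 (95% interval 0.05 to 0.52), and Krt20, a keratin of mature surface cells, by 2.02 (95% interval 0.18 to 3.86). The epithelial markers thus moved in the same direction as the differentiated cell genes, with a smaller median, and their part in those differences was not tested. Without the adenoma of mouse 1805, the epithelial median was 0.17, the surface colonocyte median 0.74 and the goblet cell median 1.04.

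**Figure D2:**
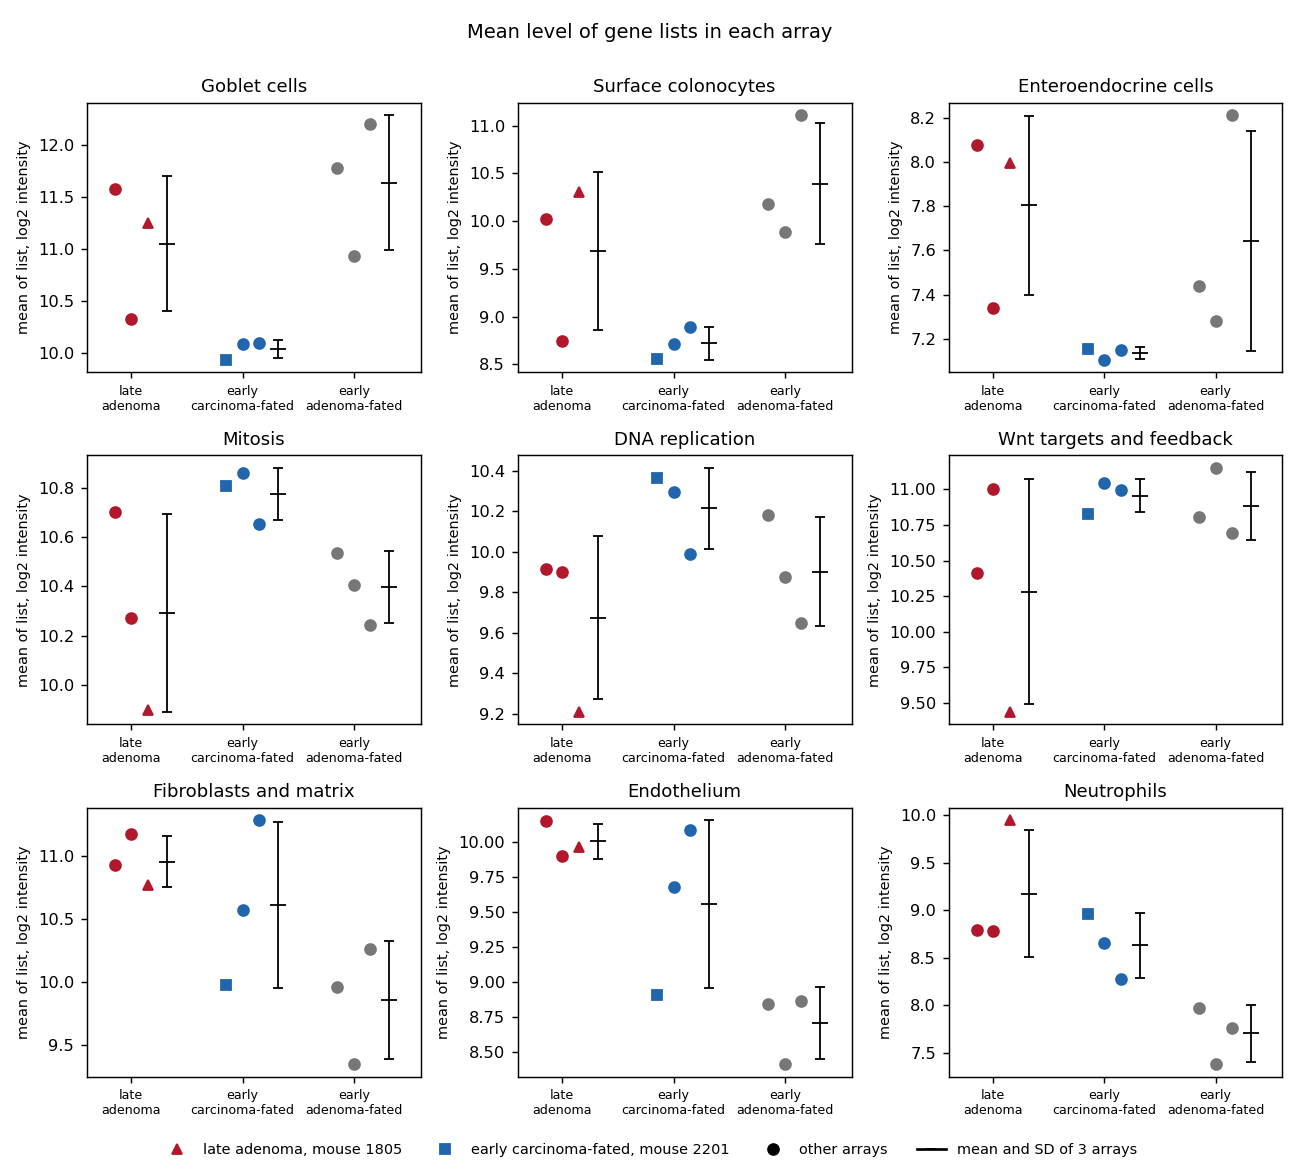
Mean log2 intensity of 9 gene lists (y axes, which do not start at 0) in each late adenoma, early carcinoma-fated and early adenoma-fated array, with the mean and SD of each group of 3 arrays beside the points. The triangle marks the late adenoma of mouse 1805, which is the lowest array in the mitosis, DNA replication and Wnt target panels, and the square marks the early array of mouse 2201, which lies near the early adenoma-fated arrays in the fibroblast and endothelium panels.

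The 10 genes named for the smallest p among those higher in late adenomas were Slc52a3, Tff3, Pla2g10, Sepsecs, Cadps2, Pxmp4, Tom1, Cyp2w1, Ush1c and Fam241a. Slc52a3, a riboflavin transporter of the intestinal epithelium, had values of 10.30, 9.88 and 10.75 in late adenomas, against 9.26, 9.12 and 9.43 in early carcinoma-fated tumors, a difference of 1.04 (95% interval 0.61 to 1.47, adjusted p = 0.304). Cadps2, which takes part in the release of dense-core vesicles, differed by 1.08 (95% interval 0.60 to 1.56). Ush1c, which encodes the brush border scaffold harmonin, differed by 0.84 (95% interval 0.46 to 1.22), and Pla2g10, a secreted phospholipase A2 of the colon epithelium, by 0.77 (95% interval 0.44 to 1.11). Cyp2w1, a cytochrome P450 of colon tumors, had values of 9.08, 8.94 and 9.53 in late adenomas, against 8.34, 8.23 and 8.39 in early carcinoma-fated tumors with an early adenoma-fated level of 8.47, 8.36 and 8.36. It was the 1 gene of the 10 to pass the adjusted threshold in late against early adenomas and rose by 0.78 against the early adenoma-fated tumors (adjusted p = 0.0368), whereas the early carcinoma-fated arrays were at the early adenoma-fated level (difference -0.08). The remaining 4 differed by 0.40 to 0.72.

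Division genes were lower in their group means. All 16 mitosis genes measured were lower in late adenomas, 7 of them apart (43.8%, against 11.1% of all genes) and 12 at an unadjusted p under 0.05 (75%, against 9.31%), with a median difference of -0.52. All 17 DNA replication genes were lower, 10 of them apart (58.8%), with a median of -0.52. That list averaged 9.92, 9.90 and 9.21 in late adenomas, against 10.36, 10.30 and 9.99 in early carcinoma-fated tumors. Early adenoma-fated tumors had 10.18, 9.88 and 9.65, and the late carcinomas of mice 2201, 3407 and 3413 had 9.83, 10.245 and 9.83. The late carcinomas of mice 2201 and 3413 thus lay below the late adenomas of mice 1755 and 1803. The mitosis list averaged 10.71, 10.27 and 9.90 in late adenomas, against 10.81, 10.86 and 10.66 in early carcinoma-fated tumors, and 10.54, 10.41 and 10.24 in early adenoma-fated tumors. The adenoma of mouse 1755 thus lay inside the carcinoma-fated range of that list. The median over the mitosis genes was 0.39 for early carcinoma-fated minus early adenoma-fated tumors and -0.12 for late minus early adenomas.

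Top2a, the topoisomerase that untangles chromosomes in mitosis, had values of 11.34, 11.10 and 10.44 in late adenomas, against 11.77, 11.66 and 11.52 in early carcinoma-fated tumors. Averaged over its probe sets, Top2a differed by -0.26, against -0.69 when read from the brightest one. The spindle checkpoint kinase gene Bub1 had 10.43, 10.12 and 9.39 in late adenomas, against 10.69, 10.78 and 10.61 in early carcinoma-fated tumors, a difference of -0.71 (95% interval -1.18 to -0.24). Mcm2, a subunit of the helicase that opens replication origins, differed by -0.71 (95% interval -1.24 to -0.17), Mcm3 of the same helicase by -0.76 (95% interval -1.32 to -0.20), and Rrm1, the large subunit of ribonucleotide reductase, by -0.63 (95% interval -1.04 to -0.22). Mki67, the usual histological marker of cycling cells, overlapped, at 11.99, 11.35 and 11.20 in late adenomas, against 11.87, 11.99 and 11.81 in early carcinoma-fated tumors. In Top2a, Bub1 and Mki67 the adenoma of mouse 1805 was lowest and that of mouse 1755 highest. Without mouse 1805 the mitosis median was -0.33 and the DNA replication median -0.35, with every member still lower, and Top2a, Bub1, Mcm2 and Rrm1 differed by -0.45, -0.46, -0.42 and -0.42.

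A further pair of division genes were among the 10 named for the smallest p among the lower genes. Gas2l3, which links microtubules and actin during cell division, had values of 9.45, 9.24 and 9.15 in late adenomas, against 10.08, 9.84 and 9.88 in early carcinoma-fated tumors, a difference of -0.65 (95% interval -0.91 to -0.39, adjusted p = 0.304). Its early adenoma-fated values of 9.23, 9.33 and 9.27 were those of the late adenomas, while the late carcinomas held 10.19, 9.78 and 10.07, so the arrays of the carcinoma mice were the higher ones at both times. Cenpj, a centriole assembly protein, had 7.48, 7.43 and 7.39 in late adenomas, against 7.92, 8.03 and 7.76 in early carcinoma-fated tumors, a difference of -0.47 (95% interval -0.65 to -0.29, adjusted p = 0.304).

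Wnt target and feedback genes were lower in 17 of 17 members, with a median difference of -0.66 and 3 apart (17.6%, against 11.1%). These genes are switched on by beta-catenin, and many of their products restrain the pathway. The list averaged 10.41, 11.002 and 9.44 in late adenomas, against 10.82, 11.04 and 10.997 in early carcinoma-fated tumors. The adenoma of mouse 1805 was far below all other arrays and that of mouse 1803 was at the carcinoma-fated level. Early adenoma-fated tumors had 10.80, 11.15 and 10.69. For late minus early adenomas the list median was -0.59 with 2 of 17 higher, and -0.17 with 5 of 17 higher without mouse 1805. Axin2, the standard feedback target, had 11.23, 11.83 and 10.15 in late adenomas, against 11.55, 11.83 and 11.80 in early carcinoma-fated tumors. Wif1, a secreted Wnt inhibitor, had 11.52, 11.85 and 9.68 in late adenomas, against 12.10, 11.86 and 12.24 in early carcinoma-fated tumors, and Dkk2, another secreted antagonist, had 10.23, 10.94 and 9.47 in late adenomas, against 11.27, 11.21 and 11.06 in early carcinoma-fated tumors. Without mouse 1805 the list median was -0.35, the Axin2 difference was -0.24 against -0.66 with it, and 15 of 17 members were lower. Wif1 and Dkk2 then differed by -0.41 and -0.63, against -1.05 and -0.97 with all arrays. Of the stem cell genes, 9 of 12 were lower and 2 apart (16.7%, against 11.1% of all genes), at a median of -0.20. Lgr5, the Wnt-driven receptor of crypt base stem cells, had 12.22, 11.31 and 10.03 in late adenomas, against 12.30, 10.75 and 12.02 in early carcinoma-fated tumors, and both groups were wide and overlapping. Msi1, an RNA-binding protein of stem cells, differed by -0.88 (95% interval -1.57 to -0.20) and Tnfrsf19, a Wnt target in those cells, by -1.16 (95% interval -2.19 to -0.13). Without mouse 1805 these were -0.49 and -0.50.

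A small set of Wnt ligand and receptor genes was lower in every adenoma, mouse 1803 included. Of 27 such genes 17 were lower, 5 of them apart (18.5%, against 11.1%), and the median was only -0.04. Fzd10, a Frizzled receptor for Wnt ligands, had the smallest p of all 19938 genes, with values of 7.63, 7.77 and 7.68 in late adenomas, against 8.32, 8.51 and 8.29 in early carcinoma-fated tumors. The difference was -0.68 (95% interval -0.89 to -0.48, adjusted p = 0.304). Early adenoma-fated tumors were at the carcinoma-fated level, 8.61, 8.39 and 8.60, and the gene fell by 0.84 in late adenomas relative to their early biopsies (adjusted p = 0.00563). Wnt6, a ligand, had values of 7.58, 7.78 and 7.71 in late adenomas, against 8.54, 8.82 and 8.76 in early carcinoma-fated tumors, a difference of -1.01 (95% interval -1.42 to -0.61, adjusted p = 0.304), and fell by 1.26 relative to early adenoma-fated values of 8.55, 9.34 and 8.96 (adjusted p = 0.0236). Both genes were thus lower in long-standing adenomas than in either kind of early tumor. Neither the Fzd10 window (chr5:128600856-128601155) nor the Wnt6 window (chr1:74771642-74771941) holds any of the 3 motifs, which says only that these letters are not in the windows:
Fzd10: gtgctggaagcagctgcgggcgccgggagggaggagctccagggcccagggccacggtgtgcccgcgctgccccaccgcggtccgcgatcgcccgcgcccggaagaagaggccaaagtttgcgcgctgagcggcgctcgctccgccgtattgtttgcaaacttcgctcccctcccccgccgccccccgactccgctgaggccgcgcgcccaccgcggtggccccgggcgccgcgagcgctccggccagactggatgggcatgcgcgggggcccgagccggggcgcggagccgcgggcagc
Wnt6: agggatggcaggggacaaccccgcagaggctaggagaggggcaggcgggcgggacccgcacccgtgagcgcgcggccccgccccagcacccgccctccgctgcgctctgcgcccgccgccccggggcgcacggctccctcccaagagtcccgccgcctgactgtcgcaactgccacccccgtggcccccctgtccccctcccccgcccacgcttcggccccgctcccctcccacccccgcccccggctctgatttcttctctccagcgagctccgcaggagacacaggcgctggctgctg

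Wnt10a, a second ligand and the chromosomal neighbour of Wnt6, had values of 8.38, 8.96 and 8.34 in late adenomas, against 8.86, 9.54 and 9.52 in early carcinoma-fated tumors. Its groups overlapped, at a difference of -0.74 (95% interval -1.36 to -0.13), and it fell by 1.26 against early adenoma-fated values of 9.39, 10.43 and 9.66 (adjusted p = 0.0345). Lypd6, shown in zebrafish to act at the cell surface on the Wnt co-receptor, had 6.43, 6.90 and 6.39 in late adenomas, against 7.02, 7.72 and 7.69 in early carcinoma-fated tumors. The related Lypd6b had 7.62, 7.63 and 7.24 in late adenomas, against 7.93, 8.17 and 8.42 in early carcinoma-fated tumors. Their differences were -0.90 (95% interval -1.37 to -0.44) and -0.67 (95% interval -1.20 to -0.15), and both fell against early adenoma-fated tumors (adjusted p = 0.0244 for Lypd6 and 0.0318 for Lypd6b). Without mouse 1805 the differences of Fzd10, Wnt6, Wnt10a, Lypd6 and Lypd6b were -0.66, -1.02, -0.65, -0.81 and -0.58, and without the early array of mouse 2201 they were -0.71, -1.05, -0.88, -1.07 and -0.69. These 5 values were close to those with all arrays, unlike the Wnt target list.

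**Figure D3:**
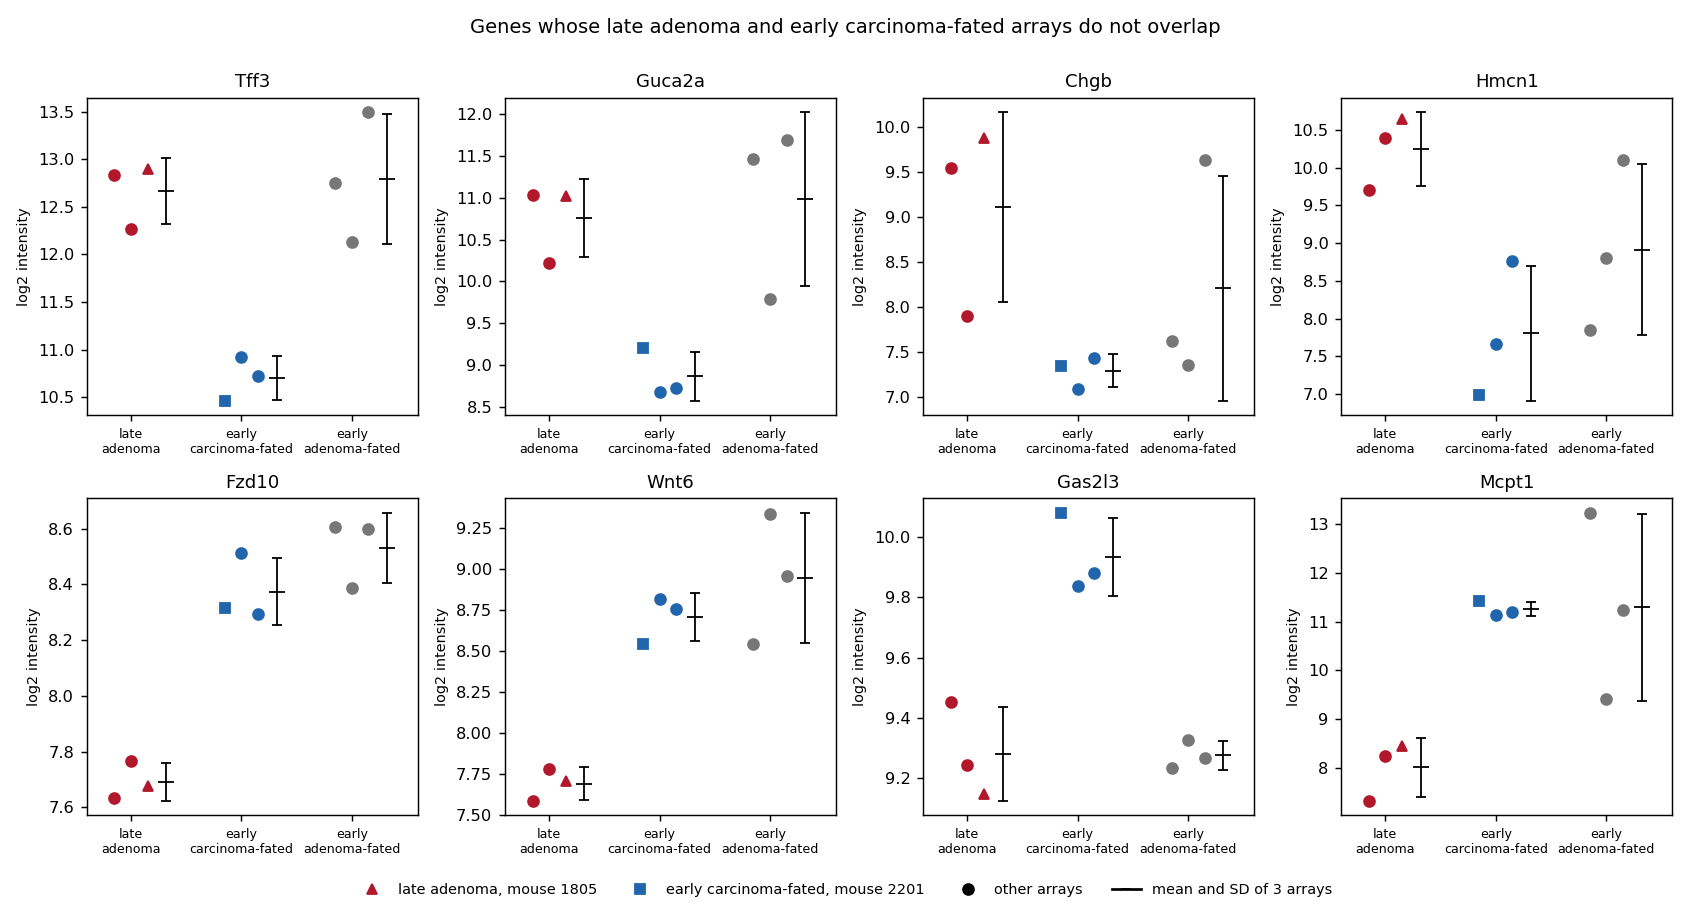
Log2 intensity (y axes, which do not start at 0) of 8 genes in each array, with the mean and SD of each group of 3. Tff3, Guca2a, Chgb and Hmcn1 are higher in all 3 late adenomas than in all 3 early carcinoma-fated tumors, and Fzd10, Wnt6, Gas2l3 and Mcpt1 are lower.

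Of the other genes named for the smallest p among those lower in late adenomas, Zfp334, a zinc finger gene, had values of 8.36, 8.29 and 7.77 in late adenomas, against 9.14, 9.22 and 9.07 in early carcinoma-fated tumors, a difference of -1.003 (95% interval -1.34 to -0.67, adjusted p = 0.304). Cadm1, a cell adhesion molecule of epithelia and mast cells, had 9.03, 8.55 and 8.81 in late adenomas, against 9.64, 9.68 and 9.69 in early carcinoma-fated tumors. Syt11, a synaptotagmin of vesicle traffic, differed by -1.27 (95% interval -1.81 to -0.74), and Esyt3, an extended synaptotagmin that tethers the endoplasmic reticulum to the plasma membrane, by -1.03 (95% interval -1.42 to -0.63). Nptx1, a neuronal pentraxin, differed by -0.97 (95% interval -1.38 to -0.56) and Itm2c, a membrane protein, by -0.50 (95% interval -0.70 to -0.29). Cadm1, Syt11, Esyt3, Nptx1 and Itm2c also fell against early adenoma-fated tumors (adjusted p = 0.0332, 0.0401, 0.034, 0.0281 and 0.035 in that order). Zfp334 did not pass there (difference -0.53 (adjusted p = 0.0678)).

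Larger differences were seen in genes named from the late against early adenoma comparison. Pnliprp1, a pancreatic lipase-related protein gene, had values of 10.95, 8.97 and 7.24 in late adenomas, against 11.40, 11.81 and 12.20 in early carcinoma-fated tumors, a difference of -2.75 (95% interval -4.30 to -1.21). The related Pnliprp2 had 10.73, 9.24 and 7.64 in late adenomas, against 10.84, 10.68 and 11.59 in early carcinoma-fated tumors. Rarb, a retinoic acid receptor, had 8.94, 9.33 and 8.25 in late adenomas, against 10.10, 10.69 and 10.81 in early carcinoma-fated tumors, a difference of -1.69 (95% interval -2.66 to -0.73). Each of the 3 fell in late adenomas relative to their early biopsies (adjusted p = 0.0382, 0.0395 and 0.0478 in that order). The early carcinoma-fated level was near that of the early adenoma-fated tumors for Pnliprp1 (-0.27) and Rarb (-0.05). For Pnliprp2 it was lower (-0.82) and lay between those of the early and late adenomas. In all 3 genes the adenoma of mouse 1805 was lowest, and without it the Pnliprp2 difference was -1.14 against -1.84 with it.

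Stromal and vessel genes leaned higher in late adenomas, with few apart. Of 12 endothelial genes 11 were higher than in early carcinoma-fated tumors and 0 were apart, with a median difference of 0.46, and the median difference was 1.33 from early adenoma-fated tumors with 8 of 12 passing the adjusted threshold as higher (66.7%, against 0.762% of all genes). The endothelial mean was 10.14, 9.90 and 9.96 in late adenomas, against 8.91, 9.68 and 10.09 in early carcinoma-fated tumors, and 8.85, 8.41 and 8.86 in early adenoma-fated tumors. The early carcinoma-fated array of mouse 2201 was near the early adenoma-fated level, and those of mice 3407 and 3413 were near the late adenoma level. Mouse 2201 is also the carcinoma-fated mouse whose early array carries an early sample number, and without it the median difference was 0.14. The early adenoma-fated arrays all have early numbers and the late adenoma arrays all have late ones. With array group as a term, whose effect then rests on the early array of mouse 2201 against those of mice 3407 and 3413, the median of late minus early adenoma was 0.33 over the endothelial genes, 11 of 12 were higher and 0 passed. With mouse as a fixed block 1 of 12 passed, and without the late adenoma of mouse 1805 0 passed.

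Tie1, an endothelial receptor kinase, had values of 9.38, 9.24 and 9.36 in late adenomas, against 8.26, 8.84 and 9.37 in early carcinoma-fated tumors, and 7.996, 7.95 and 8.16 in early adenoma-fated tumors. Egfl7, a secreted endothelial protein, had 9.82, 9.63 and 9.80 in late adenomas, against 9.11, 9.48 and 9.70 in early carcinoma-fated tumors, a difference of 0.32 (95% interval 0.01 to 0.63), and rose by 0.98 in late adenomas against early ones (adjusted p = 0.0236). Emcn, an endothelial sialomucin, had 10.49, 10.48 and 11.07 in late adenomas, against 8.92, 10.21 and 10.53 in early carcinoma-fated tumors. Without mouse 2201 the differences of Tie1, Egfl7 and Emcn from early carcinoma-fated tumors were 0.19, 0.18 and 0.29, against 0.50, 0.32 and 0.80 with it. With array group as a term the late minus early adenoma difference of Egfl7 was 0.55 (adjusted p = 0.563). Fibroblast and matrix genes were higher in 18 of 19 members with 1 apart (5.26%, against 4.39% of all genes), at a median of 0.36. Against early adenoma-fated tumors the median was 1.03 with 4 of 19 passing as higher (21.1%, against 0.762%). With array group as a term that median was 0.24 and 0 passed. Col1a1, the main fibrillar collagen chain, had 12.02, 12.60 and 12.29 in late adenomas, against 11.14, 11.79 and 12.43 in early carcinoma-fated tumors, a difference of 0.51 (95% interval -0.26 to 1.29). That interval holds 0 and also differences above 1, so the 3 arrays a group do not fix whether the level was reached or passed. Fap, a protease of activated fibroblasts, was the 1 member apart, at 6.55, 6.80 and 6.72 in late adenomas, against 6.14, 5.96 and 6.45 in early carcinoma-fated tumors. Without mouse 2201 the fibroblast median was 0.02, with 12 of 19 higher, and the Col1a1 difference was 0.20.

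Basement membrane genes were mixed, with 12 of 15 higher, and without mouse 2201 5 of 15 were higher. Apart were 2 as higher (13.3%, against 4.39% of all genes) and 2 as lower (13.3%, against 11.1%). Hmcn1, which encodes the large extracellular protein hemicentin-1, had values of 9.70, 10.38 and 10.64 in late adenomas, against 6.99, 7.67 and 8.76 in early carcinoma-fated tumors, a difference of 2.44 (95% interval 1.28 to 3.59, adjusted p = 0.304). Averaged over its probe sets instead of read from the brightest one, the gene differed by 1.009. The adenomas of mice 1755, 1803 and 1805 had 7.84, 8.80 and 10.09 at the early biopsy, and the late carcinomas had 9.54, 9.74 and 10.04, so the early carcinoma-fated tumors were the low group for this gene. Laminin chains went different ways. Lama3, an epithelial chain, differed by 0.62 (95% interval 0.12 to 1.12) and by 0.31 without mouse 1805, Lama5 by -0.35 (95% interval -0.62 to -0.08) and Lamb2 by -0.52 (95% interval -0.92 to -0.11). Smooth muscle genes, of which 0 of 9 were apart, had a median of 0.45, and 0.03 without mouse 2201.

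The haptoglobin gene was at the carcinoma-fated level in late adenomas. Hp, an acute phase protein that binds free haemoglobin, had values of 9.63, 9.90 and 10.11 in late adenomas, against 9.59, 8.91 and 10.52 in early carcinoma-fated tumors, and 7.03, 6.73 and 7.42 in early adenoma-fated tumors. Its difference between late adenomas and early carcinoma-fated tumors was 0.21 (95% interval -0.59 to 1.001, adjusted p = 0.835). Against their own early biopsies the late adenomas rose by 2.82 (adjusted p = 0.0141; 2.94 and adjusted p = 0.487 with array group as a term), and the early carcinoma-fated tumors were above the early adenoma-fated ones by 2.61, a difference that did not pass (adjusted p = 0.134). Hp was among the genes named for a small p between early groups that do not overlap. The gap between 8.91 in mouse 3407 and the highest early adenoma-fated array, 7.42, therefore followed from that choice. The early array of mouse 2201, which carries an early sample number, had 9.59, and the cause of the difference was not tested.

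Cp, which encodes ceruloplasmin, a copper-binding ferroxidase, had values of 10.74, 10.72 and 10.39 in late adenomas, against 10.66, 11.03 and 11.47 in early carcinoma-fated tumors, and 9.81, 9.32 and 9.82 in early adenoma-fated tumors. It rose by 0.97 in late adenomas against early ones (adjusted p = 0.034) and differed from the carcinoma-fated tumors by -0.43 (95% interval -0.90 to 0.04). Septin11, a cytoskeletal GTP-binding protein gene, had 11.83, 11.68 and 12.02 in late adenomas, against 11.76, 11.77 and 11.86 in early carcinoma-fated tumors, and 11.24, 11.23 and 11.22 in early adenoma-fated tumors, so that the 2 groups compared differed by 0.05 (95% interval -0.16 to 0.25). On the other side, Zfp758, a zinc finger gene, had 7.58, 7.52 and 7.39 in late adenomas, against 7.73, 7.68 and 7.72 in early carcinoma-fated tumors, and 8.54, 8.34 and 8.56 in early adenoma-fated tumors, a fall in late adenomas of 0.98 (adjusted p = 0.00563). Selenoo, a mitochondrial selenoprotein, differed by 0.11 (95% interval -0.07 to 0.28) between late adenomas and carcinoma-fated tumors and fell by 0.37 against early adenomas (adjusted p = 0.0318). Hp, Cp, Septin11, Zfp758 and Selenoo were named because the early tumors of the 2 fates differed in them at the smallest p. Their early difference is therefore a description. Their rise or fall in late adenomas uses the same early adenoma-fated arrays and is not independent of that choice. The same rule named Praf2, Smim6 and Cyp2d10. Over the alternatives these differed between late adenomas and carcinoma-fated tumors by -0.42 to -0.23, 0.24 to 0.41 and 0.20 to 0.37. Cyp2d10 fell against early adenomas (difference -0.53, adjusted p = 0.0446), and Praf2 and Smim6 did not pass there.

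Other mucosal defence genes did not follow Hp. Lcn2, the iron-scavenging protein lipocalin-2 made by inflamed epithelium and neutrophils, had values of 12.42, 11.41 and 12.05 in late adenomas, against 13.39, 12.87 and 13.07 in early carcinoma-fated tumors, a difference of -1.15 (95% interval -1.86 to -0.44). Slpi, a secreted inhibitor of neutrophil elastase, had 10.50, 10.20 and 11.47 in late adenomas, against 9.27, 9.28 and 9.68 in early carcinoma-fated tumors, a difference of 1.32 (95% interval 0.25 to 2.38). Over the list 11 of 15 were higher, 1 was apart as higher (6.67%, against 4.39% of all genes) and 1 as lower (6.67%, against 11.1%).

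**Figure D4:**
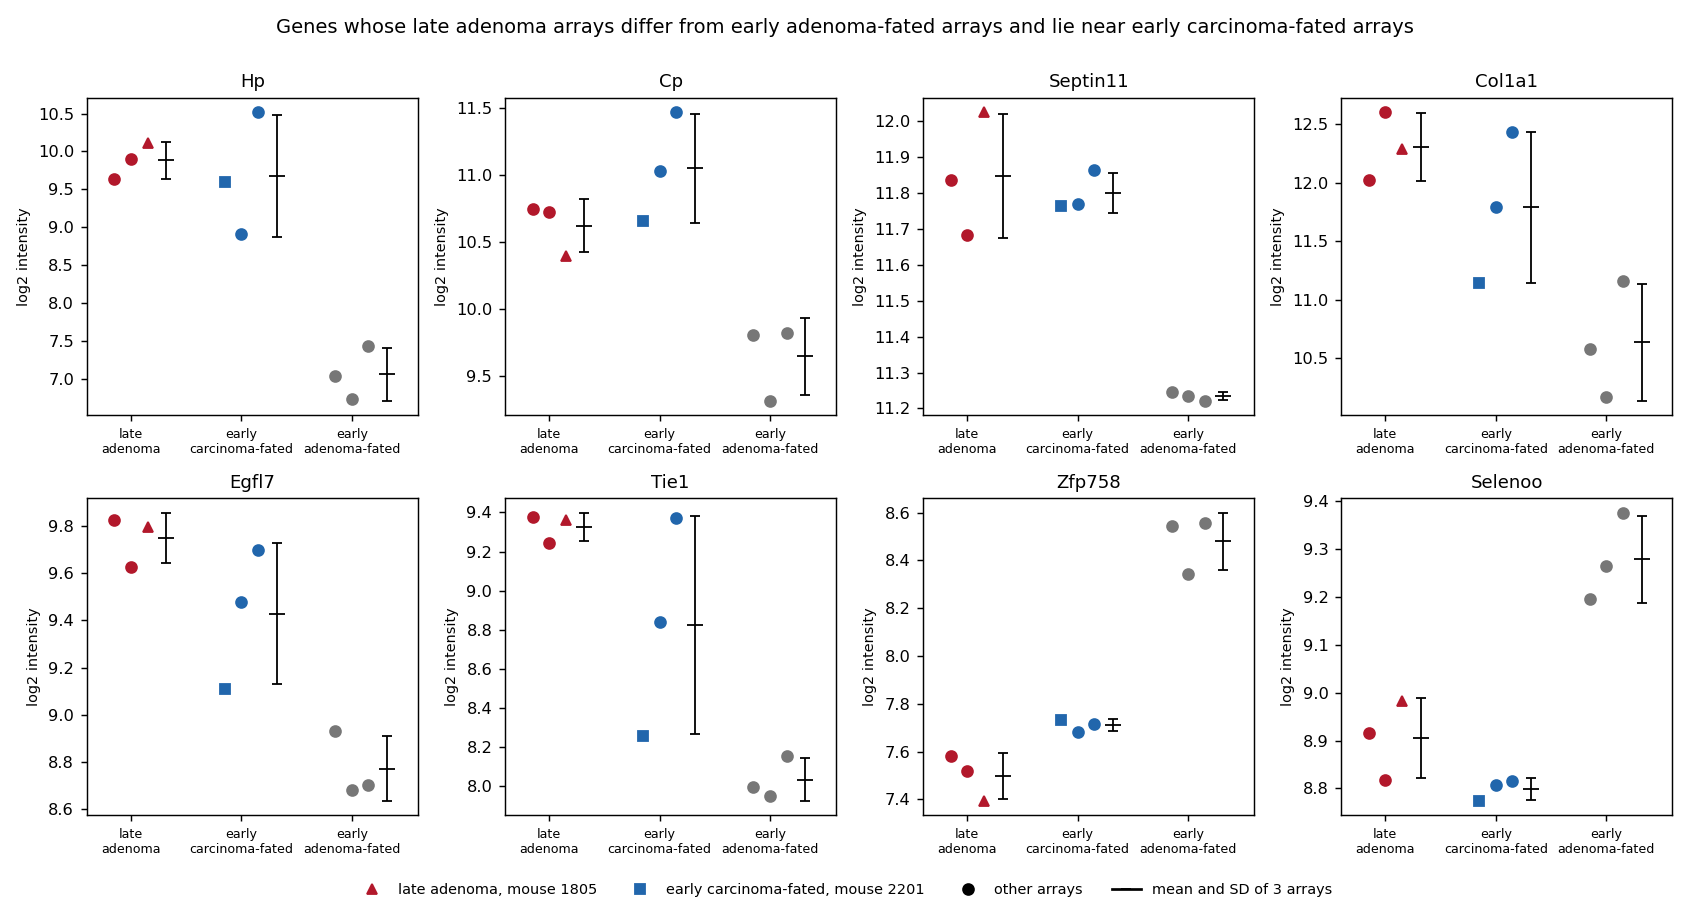
Log2 intensity (y axes, which do not start at 0) of 8 genes in each array, with the mean and SD of each group of 3. In Hp, Cp, Septin11, Col1a1, Egfl7 and Tie1 the late adenomas lie above the early adenoma-fated arrays and in Zfp758 and Selenoo below them, near the early carcinoma-fated arrays, except that in Tie1, Egfl7 and Col1a1 the early array of mouse 2201 lies lower, toward the early adenoma-fated arrays.

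Neutrophil genes were in part above the carcinoma-fated level. Of 13 measured, 10 were higher and 3 were apart (23.1%, against 4.39%), at a median of 0.66, and 7 passed as higher against early adenoma-fated tumors (53.8%, against 0.762%). In that comparison the median over the list was 1.52, and 1.92 with array group as a term, when 0 passed. With mouse as a fixed block 1 of 13 passed, and without the late adenoma of mouse 1805 0 passed. Ngp, a granule protein of immature neutrophils, had values of 7.38, 6.87 and 7.19 in late adenomas, against 6.23, 6.10 and 5.67 in early carcinoma-fated tumors, a difference of 1.14 (95% interval 0.68 to 1.61, adjusted p = 0.304). All these Ngp values lay below the array medians of 7.62 to 7.80. Mmp8, the neutrophil collagenase, had 7.55, 7.50 and 8.63 in late adenomas, against 6.93, 6.64 and 6.83 in early carcinoma-fated tumors, and Retnlg, a resistin-like neutrophil product, had 10.11, 10.22 and 11.44 in late adenomas, against 9.59, 9.50 and 7.90 in early carcinoma-fated tumors. Mmp9, a gelatinase of neutrophils and macrophages, had 11.03, 11.08 and 12.13 in late adenomas, against 11.92, 12.09 and 12.50 in early carcinoma-fated tumors, a difference of -0.75 (95% interval -1.40 to -0.11) in the other direction. Ltf and Camp, the other members that were not higher, differed by -0.53 and -0.005 with groups that overlapped. Both are named here after their values were seen. The neutrophil mean was 8.80, 8.78 and 9.95 in late adenomas, against 8.96, 8.66 and 8.28 in early carcinoma-fated tumors, so mouse 1805 was high and the other two adenomas lay inside the carcinoma-fated range. Without it the median was 0.09, and Mmp8 and Mmp9 differed by 0.71 and -1.13.

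Red cell genes moved the same way on the same array. Only 2 of the 7 listed were measured, Alas2, the erythroid enzyme of haem synthesis, at 8.79, 9.83 and 11.77 in late adenomas, against 8.66, 7.20 and 8.58 in early carcinoma-fated tumors, and Slc4a1, the band 3 anion exchanger of red cells, at 8.16, 9.38 and 11.36 in late adenomas, against 7.86, 7.57 and 7.61 in early carcinoma-fated tumors. Both were apart, and both were highest in mouse 1805. Without it they differed by 1.16 and 1.08, against 1.98 and 1.95 with it. Hypoxia and glycolysis genes were higher in 12 of 12, with a list mean of 11.03, 11.36 and 12.06 in late adenomas, against 11.08, 10.85 and 11.001 in early carcinoma-fated tumors. Car9, a carbonic anhydrase induced by low oxygen, had 10.12, 9.996 and 11.23 in late adenomas, against 9.40, 8.68 and 9.25 in early carcinoma-fated tumors, and Slc2a1, a glucose transporter, had 12.82, 12.72 and 13.84 in late adenomas, against 12.70, 12.48 and 12.51 in early carcinoma-fated tumors. The hypoxia median was 0.44 with mouse 1805 and 0.13 without it, and the Slc2a1 difference 0.56 with it and 0.20 without it. The adenoma biopsy of mouse 1805 was thus high in neutrophil, red cell and hypoxia genes and low in Wnt target and replication genes, and the part of its tissue content in each list was not tested.

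Mast cell genes were lower in late adenomas, 9 of 11, with 5 apart (45.5%, against 11.1%) and a median of -0.99. Cma1 and Hdc went the other way, at 0.02 and 0.40, and are named here after their values were seen. The protease genes Mcpt4 and Tpsb2 differed by -1.20, with groups apart, and by -0.58, with groups that overlapped. Mast cells of the mucosa store proteases that are released on activation. Mcpt1, a chymase of mucosal mast cells, had values of 7.32, 8.25 and 8.45 in late adenomas, against 11.43, 11.14 and 11.20 in early carcinoma-fated tumors, a difference of -3.25 (95% interval -5.47 to -1.03, adjusted p = 0.306). Mcpt2, a related protease, had 9.42, 9.62 and 9.75 in late adenomas, against 12.22, 12.11 and 12.14 in early carcinoma-fated tumors, a difference of -2.56 (95% interval -4.45 to -0.67, adjusted p = 0.307). In a fit to these 6 arrays alone Mcpt2 was the 1 gene of 19938 to pass (difference -2.56, limma adjusted p = 0.00375). The 2 genes are similar in sequence, and how far the probes separate them was not tested. Ms4a2, the beta chain of the high-affinity IgE receptor, had 5.70, 5.51 and 5.30 in late adenomas, against 6.53, 6.51 and 6.45 in early carcinoma-fated tumors, and Cpa3, the mast cell carboxypeptidase, overlapped at 9.26, 7.90 and 6.55 in late adenomas, against 9.15, 9.66 and 10.15 in early carcinoma-fated tumors.

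The early adenoma-fated tumors were unlike each other in these genes, with Mcpt1 at 13.23, 9.40 and 11.24, and the late adenomas did not pass against their early biopsies (difference -3.29 (adjusted p = 0.0806)). Il33, an epithelial and stromal alarmin that acts on mast cells, had 10.66, 10.23 and 9.23 in late adenomas, against 11.65, 11.30 and 11.04 in early carcinoma-fated tumors, a difference of -1.29 (95% interval -2.05 to -0.53), with the early adenoma-fated tumors at 10.93, 10.41 and 10.30. The Mcpt1 window, chr14:56017714-56018013, holds 1 GATA, 1 TCF/LEF and 1 TATA match, each on the plus strand:
Mcpt1: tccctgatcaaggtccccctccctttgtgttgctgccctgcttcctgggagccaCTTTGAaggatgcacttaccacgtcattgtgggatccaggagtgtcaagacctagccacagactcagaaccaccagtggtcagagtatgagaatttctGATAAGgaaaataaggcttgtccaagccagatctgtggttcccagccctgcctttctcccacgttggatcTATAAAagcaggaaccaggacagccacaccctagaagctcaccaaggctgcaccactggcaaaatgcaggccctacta

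Plasma cell genes leaned the other way, with 8 of 10 B and plasma cell genes higher, 3 apart (30%, against 4.39% of all genes) and a median of 0.72. Jchain, which joins secreted IgA and IgM, spanned 13.16, 11.25 and 12.31 in late adenomas, against 7.31, 9.01 and 11.69 in early carcinoma-fated tumors, and Mzb1, an endoplasmic reticulum protein of antibody-secreting cells, had 9.41, 7.91 and 9.12 in late adenomas, against 7.30, 7.42 and 8.05 in early carcinoma-fated tumors. The early array of mouse 3413 overlapped the adenomas in both, and without that of mouse 2201 Jchain differed by 1.55, against 2.90 with it. T and NK cell genes showed no such lean, with 7 of 15 higher, 0 apart as higher and 1 as lower (6.67%, against 11.1%), at a median of -0.07. Macrophage genes had 5 of 14 higher at a median of -0.21. Within that list Arg1, the arginase of alternatively activated macrophages, was apart at 10.62, 9.76 and 12.41 in late adenomas, against 9.12, 9.16 and 9.37 in early carcinoma-fated tumors, a difference of 1.72, or 0.93 without mouse 1805. Of the interferon response genes 7 of 11 were lower, and Usp18, which removes ISG15 from proteins and damps interferon signalling, had 8.79, 8.01 and 9.40 in late adenomas, against 10.69, 10.89 and 10.81 in early carcinoma-fated tumors, a difference of -2.06 (95% interval -3.25 to -0.87). The early adenoma-fated values of Usp18 were 11.83, 10.50 and 10.10.

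Among the aldo-keto reductases and other xenobiotic enzymes, 11 of 16 were higher, at a median of 0.53. Apart were 3 as higher (18.8%, against 4.39% of all genes) and 2 as lower (12.5%, against 11.1%). Akr1c12 had values of 8.49, 9.01 and 8.73 in late adenomas, against 8.31, 7.57 and 7.73 in early carcinoma-fated tumors and its neighbour Akr1c13 had 8.89, 9.08 and 8.85 in late adenomas, against 8.49, 7.98 and 8.41 in early carcinoma-fated tumors, both steroid- and carbonyl-reducing enzymes. The early adenoma-fated values were 8.59, 9.16 and 8.90 for Akr1c12, so that the carcinoma-fated tumors were the low group. The 2 genes are close copies and their signals may not be separate. Abcg2, an export pump of the apical membrane, was higher at 8.59, 7.51 and 9.55 in late adenomas, against 6.79, 7.29 and 7.49 in early carcinoma-fated tumors, and Abcc2, another apical export pump, was lower at 7.94, 9.37 and 7.67 in late adenomas, against 9.55, 10.98 and 10.10 in early carcinoma-fated tumors. Abcc2 differed by -1.88 (95% interval -3.12 to -0.65), and its early adenoma-fated values of 9.46, 11.001 and 10.12 were at the carcinoma-fated level. Gulo, an enzyme of vitamin C synthesis in mice, had 8.81, 7.10 and 6.59 in late adenomas, against 9.14, 8.15 and 9.86 in early carcinoma-fated tumors and overlapped.

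Position genes split the arrays within each group. Hoxd10, which specifies posterior identity along the gut, had values of 6.50, 10.28 and 10.97 in late adenomas, against 6.45, 10.02 and 6.20 in early carcinoma-fated tumors, and Hoxd11 had 7.81, 10.59 and 10.89 in late adenomas, against 7.60, 10.07 and 7.37 in early carcinoma-fated tumors. Mouse 1755 was low in both biopsies, with 6.21, 9.76 and 10.17 for Hoxd10 in the early biopsies of mice 1755, 1803 and 1805. Over the colon position list the tumor of mouse 3413 averaged 8.66 in its late carcinoma and 7.54 in its early biopsy, so its 2 biopsies fell on different sides of the split. Of these genes 8 of 9 were higher in late adenomas with 0 apart, but 3 of 9 with array weights, and where along the colon each tumor sat is not stated. Circadian genes were higher in 9 of 11, among them Nr1d1, a repressor of the clock, at 10.52, 10.53 and 11.47 in late adenomas, against 9.70, 9.72 and 10.40 in early carcinoma-fated tumors, and the hour of each biopsy is likewise not given.

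Apc had values of 10.96, 11.05 and 10.99 in late adenomas, against 10.64, 11.10 and 11.06 in early carcinoma-fated tumors, a difference of 0.07 (95% interval -0.23 to 0.36), and the array does not read the Min mutation. Ctnnb1, which encodes beta-catenin, differed by -0.20 (95% interval -0.41 to 0.01). Myc, a growth regulator and Wnt target, had 11.77, 11.96 and 10.49 in late adenomas, against 11.81, 11.79 and 11.47 in early carcinoma-fated tumors, with the adenoma of mouse 1805 low. Pla2g2a, a secreted phospholipase that modifies tumor number in Apc Min/+ mice, differed by -0.40 (95% interval -0.97 to 0.16), and by -0.036 without mouse 1805. Pld5, a phospholipase D relative with no known catalytic activity, had values of 6.47, 6.62 and 6.38 in late adenomas, against 6.46, 6.44 and 6.49 in early carcinoma-fated tumors and stood at 7.84, 7.58 and 7.59 in the late carcinomas.

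The remaining 19 lists had medians from -0.15 (gastric-type epithelium) to 0.23 (mesenchymal transition), with 0 to 2 members apart in either direction. They cover Paneth-type cells, BMP and Notch signalling, MHC class II, cytokines, matrix proteases, mesenchymal transition, fetal-like, gastric-type and squamous epithelium, oxidative phosphorylation, cholesterol synthesis, p53 targets, immediate early genes, ion transport, claudins, ephrins, adipocytes and enteric nerve. For tuft cells 9 of 9 genes were lower with 0 apart, at a median of -0.18. In the gastric-type list Muc6, a gland mucin, differed by -1.34 (95% interval -2.42 to -0.26), though by -0.21 with array weights, and Anxa10, an annexin of gastric-type epithelium, by -0.78 (95% interval -1.38 to -0.19). The 7 MHC class II genes had a median of 0.10 with 6 higher, and of -0.49 with 0 higher without mouse 2201. The 17 cytokine genes had a median of -0.13 with 6 higher, which was -0.67 with 2 higher without mouse 1805 and 0.35 with 11 higher without mouse 2201.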

How the data were processed

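Total RNA of colon tumor biopsies, 300 ng each, was hybridised to Affymetrix mouse gene arrays, 1 array per biopsy, per the labels' protocols. The deposited values were read as log2 intensities from their range (2.56 to 14.83), and their summarisation and normalisation are not given in the sources used here. They were used as deposited. Among 35557 probe sets, the platform annotation gives 1 symbol for 21789, several for 1621 and no symbol for 12147. Those with 1 were used, and for the 999 genes with more than 1 probe set the one with the highest mean was kept, leaving 19938 genes, dim ones included. Gene identifiers matched a RefSeq table for 19856 genes.

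Groups were set by time point and final pathology. The 12 arrays were fitted as 4 groups with limma 3.58.1 in R 4.3.3 with mouse as a random block (consensus correlation 0.286), moderated tests were 2-sided and p-values were adjusted by Benjamini-Hochberg over all genes, with a threshold of 0.05. The steps were tested on simulated data. Only 3 arrays a group limit the precision. Gene lists (45, with 546 of 592 genes measured) are described by counts and medians with no test. Genes were named by these rules: for the main comparison up to 12 a direction among those passing, filled to 10 by smallest p; up to 6 a direction, filled to 4, for the side comparisons; in each list the 4 smallest p and up to 2 with the smallest differences; and 16 fixed genes. Predicted genes, receptor families of smell and taste, and antibody and T cell receptor segments were not named. Members and lists were chosen with earlier results of these data known. Alternatives covered the block, array group, normalisation, dim genes, probe sets, prior, sex, array weights and each array left out, the late carcinomas excepted.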

Additional observations from a re-analysis of the deposited data

How the results depend on the processing

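The main comparison had 0 genes past the threshold in every alternative run but the fit to its 6 arrays and that with array weights. The fit to its 6 arrays without the block gave 1. Array weights gave 1864, with 57 of 110 genes followed singly among them. The arrays left out in turn were the 9 outside the late carcinoma group (0 to 0 genes). Late against early adenomas, with 304 genes, gave 2 without the block, 0 with array group as a term, 98 with sex as a covariate, 616 with array weights and 3 to 706 with an array left out; the lowest came without the late adenoma of mouse 1805 and the highest without the early array of mouse 2201. For the same comparison, whose arrays are paired by animal, mouse as a fixed replicate block gave 25. No paired analysis was possible for the main comparison because its 6 arrays come from 6 mice. The early comparison, with 0 genes, gave 326 with array weights and 0 to 7 with an array left out. Alternatives for these side comparisons other than the replicate block, the early comparison without the block and the arrays left out were chosen after seeing the data, as was the repeat of list counts without mouse 1805 or 2201.

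The differences of Lgr5, Myc, Hp, Septin11, Pld5, Apc, Hoxd10 and Hoxd11 changed sign in some settings. With an array left out, Lgr5 ranged from -0.9504 to 0.02025 and Myc from -0.578 to 0.1128, each highest without the late adenoma of mouse 1805. Hp ranged from -0.190 without the early array of mouse 3407 to 0.586, Septin11 from -0.0422 without the late adenoma of mouse 1805 to 0.1307, Pld5 from -0.0073 to 0.0497 and Apc from -0.0308 to 0.1318, the last pair lowest without the early array of mouse 2201. Lgr5 was 0.790 with array weights, and Septin11 was -0.0021 after quantile normalisation. Pld5 was -0.0073 with array group as a term and -0.0141 with later-numbered arrays alone. Apc was -0.0308 and -0.0199 in these settings and -0.0583 with array weights. With array weights Hoxd10 was -1.36 and Hoxd11 was -0.68, against 1.69 and 1.42 without them. The cause of these changes was not tested. The median over all genes was -0.02 after quantile normalisation and -0.01 after median centring.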
